A study of Mus musculus with 18 samples.

Results

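The response of Ch25h-/- bone-marrow-derived macrophages to the lipopeptide PAM3 was measured by RNA sequencing in 6 of the 18 samples of the series. The members were the 3 libraries of PAM3-treated Ch25h-/- cells (stimulation time 18, unit not given in the labels; dose 300 ng/mL) and the 3 libraries of resting Ch25h-/- cells (stimulation time 0). Each group held 1 library from each of 3 mice, and none of these 6 libraries had received 25-hydroxycholesterol (25HC). For comparison, C57BL/6 (B6) macrophages were sampled the same way at rest and with PAM3, in 1 set with no sterol and in 1 set given 25HC at 5 µM for 18 hours, with 3 libraries in each of these 4 groups. The labels do not say how long resting cells had been kept, so time in culture and PAM3 cannot be told apart. The libraries come from separate animals within a group. All 18 libraries of the series shared 1 fit, so p-values rest on the spread between libraries within all 6 groups. Rest and PAM3 libraries of the same animal were not paired in the main test.

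PAM3 (Pam3CSK4) is a synthetic bacterial lipopeptide sensed by a pair of cell-surface receptors, TLR1 and TLR2, which signal through the adaptor MyD88 to NF-kB and MAP kinases. Ch25h encodes cholesterol 25-hydroxylase, the enzyme that makes 25HC from cholesterol. 25HC holds back SREBP processing, and so cholesterol synthesis, and is a ligand of the LXR nuclear receptors. Ch25h-/- cells lack this enzyme.

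Ch25h itself (ENSMUSG00000050370, GRCm38 chr19:34473778-34475164) was nearly absent from the mutant libraries. Resting Ch25h-/- libraries held 2, 0 and 2 counts and PAM3-treated ones 1, 2 and 0 counts, against 227 to 660 counts in resting and 76 to 234 counts in PAM3-treated B6 libraries without 25HC. All 6 Ch25h-/- libraries thus lay below all 6 of these B6 libraries.

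The 6 Ch25h-/- libraries held 14040513 to 24119611 counts each, within a range of 14040513 to 150440297 over the series. Macrophage markers summed to 41200 to 51100 CPM (counts scaled to a library of 1000000, with TMM library sizes) at rest and 54900 to 60700 CPM with PAM3. Lyz2 alone held a mean of 20800 CPM of this sum at rest and 30800 CPM with PAM3, and 10 of the 18 markers fell. The other lists of cell type markers were far lower. Highest of them were osteoclast markers, at 192 to 285 CPM at rest and 250 to 436 CPM with PAM3. Erythroid and megakaryocyte markers summed to 132 to 291 CPM and 73.9 to 156 CPM. Neutrophil markers summed to 17.6 to 89.9 CPM at rest and 11.4 to 24.6 CPM with PAM3. T and NK cell markers summed to 9.11 to 56.6 CPM and 1.29 to 2.48 CPM, and B cell markers to 11.4 to 14.9 CPM and 15.6 to 23.8 CPM. In a principal component analysis of the 6 libraries, the first component held 78.8% of the variance and separated PAM3 from rest, and the second held 12% and set resting mouse 2 apart. That library was at least 2-fold above both other resting libraries in 198 genes and at least 2-fold below both in 552, of 9688 genes at 5 CPM or more. PAM3-treated mouse 2 did so in 36 and 187 of 9251 genes. Counts without mouse 2 of both groups are given beside a list where a count moved by more than 1 gene, and beside some that moved less.

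PAM3 changed most of the expressed transcriptome of Ch25h-/- macrophages. Of 12741 genes tested with edgeR's quasi-likelihood test, 7893 (61.9%) passed an adjusted p of 0.05, 3804 higher (29.9%) and 4089 lower (32.1%) with PAM3. At 2-fold or more, 1455 were higher and 2441 lower. The median log2 fold change over all genes tested was -0.04. The shares of 29.9% higher and 32.1% lower are the background for every list count below. Some lists share genes, so their counts are not independent of each other. In bulk RNA, fewer cells of a type and less RNA per cell cannot be told apart.

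The promoters of 4 responding genes are printed because each holds a short motif for the factor classically tied to its group. They were chosen after their values were seen. Each runs from 250 bases before to 50 after the start site, 5′ to 3′, from RefSeq (GRCm38.p6), with the motif in capitals on either strand. Isg15 (GAAANNGAA, the interferon-response core) encodes a ubiquitin-like interferon-induced protein, Nfkbia (GGGANTTTC, an NF-kB site) the NF-kB inhibitor IkBa, Hmgcs1 (TCACNCCAC, a sterol regulatory element) a cholesterol synthesis enzyme, and Mcm7 (TTTCCCGC, an E2F site) a subunit of the replicative helicase.
Isg15, chr4:156200769-156201068, minus strand: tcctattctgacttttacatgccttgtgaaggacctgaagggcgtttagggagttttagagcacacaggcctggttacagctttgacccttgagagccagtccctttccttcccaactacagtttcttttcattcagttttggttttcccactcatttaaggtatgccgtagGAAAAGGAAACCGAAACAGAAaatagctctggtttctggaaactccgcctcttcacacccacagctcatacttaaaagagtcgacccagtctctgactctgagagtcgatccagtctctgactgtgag
Nfkbia, chr12:55492598-55492897, minus strand: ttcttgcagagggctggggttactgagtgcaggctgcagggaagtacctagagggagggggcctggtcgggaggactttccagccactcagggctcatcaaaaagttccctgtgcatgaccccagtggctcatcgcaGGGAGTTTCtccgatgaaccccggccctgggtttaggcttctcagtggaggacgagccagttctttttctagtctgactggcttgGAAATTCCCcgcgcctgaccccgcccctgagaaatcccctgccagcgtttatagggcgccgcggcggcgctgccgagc
Hmgcs1, chr13:119690101-119690400, plus strand: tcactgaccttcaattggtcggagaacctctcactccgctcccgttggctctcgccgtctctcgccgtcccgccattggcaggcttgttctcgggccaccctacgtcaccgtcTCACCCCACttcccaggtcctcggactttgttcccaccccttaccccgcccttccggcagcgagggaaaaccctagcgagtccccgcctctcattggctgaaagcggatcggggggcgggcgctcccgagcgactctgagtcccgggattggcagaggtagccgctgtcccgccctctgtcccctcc
Mcm7, chr5:138171834-138172133, minus strand: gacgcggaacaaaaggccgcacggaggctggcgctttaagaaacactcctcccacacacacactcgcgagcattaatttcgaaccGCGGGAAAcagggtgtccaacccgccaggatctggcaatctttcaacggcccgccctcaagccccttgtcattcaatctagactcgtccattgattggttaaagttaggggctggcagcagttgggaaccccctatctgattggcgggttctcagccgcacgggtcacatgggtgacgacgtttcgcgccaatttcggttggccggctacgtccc

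The shares of promoters with these letters were counted on both strands over all 27025 genes with a RefSeq promoter. GAAANNGAA was in 15 of 26 interferon-stimulated gene promoters (57.7%), against 9.76% of all genes and 8.9% of the 9436 of them tested for expression. GGGANTTTC was in 5 of 29 promoters of NF-kB and cytokine genes (17.2%), against 1.29% and 1.26%. TTTCCCGC was in 4 of 23 DNA replication promoters (17.4%), against 1.24% and 2.37%. TCACNCCAC was in 1 of 15 cholesterol synthesis promoters (6.67%), against 1.44% and 1.42%. The motif TGACGTCA (the cyclic AMP response element), was in 1 of 21 promoters of integrated stress response genes (4.76%), against 2.03% and 3.7%. Of the 15 interferon-stimulated genes with the motif, 5 were higher with PAM3 in Ch25h-/- cells and 0 lower. The rest had no call, except Ifi44l, which had 0 counts in the Ch25h-/- libraries and was not tested. Of the 5 NF-kB and cytokine genes, 3 were higher and 1 (Csf1) lower. Of the 4 DNA replication genes, 0 were higher and 3 lower. The 1 cholesterol synthesis gene (Hmgcs1) was higher and the 1 stress response gene (Ppp1r15a) lower. A match is a description of letters, not of binding, and whether motif and response go together was not tested.

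The 2 receptors for PAM3 moved to different extents. Tlr1 (chr5:64924679-64933563) stood at 97.4, 89.2 and 94.7 CPM at rest in mice 1, 2 and 3 and at 555, 495 and 567 CPM with PAM3. Its log2 fold change was 2.52 ± 0.14 (SE, edgeR adjusted p = 3.64e-09, n = 3 per group). Tlr2 (chr3:83836272-83841767) went from 136, 186 and 180 CPM to 238, 208 and 266 CPM, a log2 fold change of 0.50 ± 0.20 (edgeR adjusted p = 0.0366). Tlr6, which pairs with TLR2 for diacyl lipopeptides, had a log2 fold change of 0.44 ± 0.13 (edgeR adjusted p = 0.00949). The Tlr1 rise was the larger one, and the Tlr2 call was lost without resting mouse 1 (adjusted p 0.16), resting mouse 3 (0.0551), PAM3 mouse 1 (0.0769) or PAM3 mouse 3 (0.139). The Tlr6 call was lost without resting mouse 1 (adjusted p 0.0629). Across the 16 Toll-like receptors and co-receptors, 4 rose and 8 fell. The falls included Tlr5, the flagellin receptor, from 10.7, 69.4 and 19.7 CPM to 0.143, 0.436 and 0.279 CPM (log2 -6.83), and the endosomal nucleic acid sensors Tlr7 (log2 -2.42) and Tlr13 (log2 -2.52).

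Of 18 MyD88 and IRAK signalling genes, 8 rose (44.4%) and 2 fell (11.1%), beside 29.9% and 32.1% over all genes tested. The others did not pass the test. Irak3, an inhibitory kinase of the IRAK family, went from 41.5, 60.8 and 42.7 CPM to 413, 325 and 409 CPM (log2 2.98). Myd88, the adaptor itself, had a log2 fold change of 1.37, and Tirap, the bridging adaptor, 1.19. Of 17 NF-kB subunits and feedback genes, 9 rose and 2 fell (12 and 2 without mouse 2), and Nfkbia, whose promoter is printed above, went from 66.7, 73.8 and 76.8 CPM to 728, 529 and 737 CPM (log2 3.20). Nfkbiz, the nuclear NF-kB cofactor IkBz, went from 24.1, 65.1 and 34.9 CPM to 652, 782 and 681 CPM (log2 4.10). In the SOCS and DUSP feedback inhibitors, 8 of 14 rose (57.1%) and 4 fell (28.6%). Without mouse 2, 8 rose and 2 fell. Socs3, which limits STAT3 signalling, reached 288, 209 and 257 CPM from 1.49, 5.76 and 2.50 CPM (log2 6.31).

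**Figure D1:**
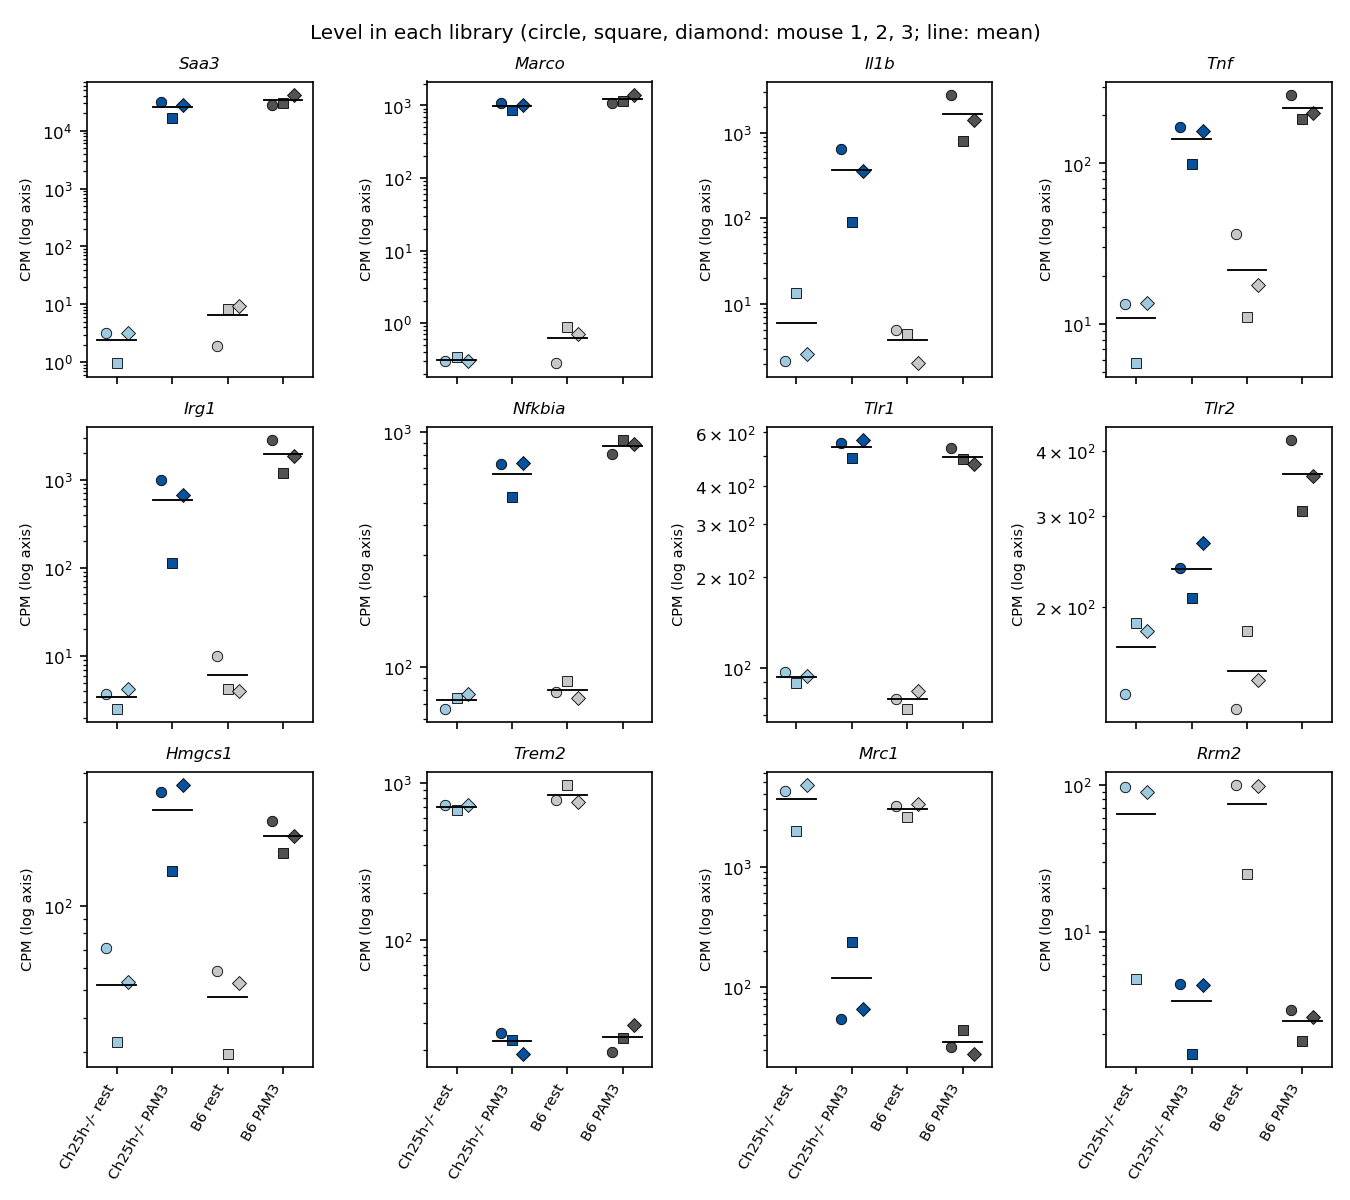
Level in CPM (log axis, own range for each panel) of 12 named genes in the resting and PAM3-treated Ch25h-/- and untreated B6 libraries; symbols mark mice 1, 2 and 3 and the line is the mean. The square of mouse 2 lies lowest of the PAM3-treated Ch25h-/- libraries for Saa3, Il1b, Tnf and Irg1, among others.

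Most acute-phase and antimicrobial genes rose. Saa3, encoding serum amyloid A3, went from 3.22, 0.96 and 3.16 CPM to 31070, 16420 and 28160 CPM (log2 13.30 ± 0.87; edgeR adjusted p = 1.53e-08). Lcn2, which sequesters bacterial siderophores, went from 2.48, 8.02 and 2.62 CPM to 962, 191 and 825 CPM (log2 7.26). Hp, encoding haptoglobin, had a log2 fold change of 8.34. Of the 19 acute-phase and antimicrobial genes tested, 13 rose and 2 fell, with a median log2 fold change of 4.50 (2.98 with genes at 0 counts set to their bound). The scavenger receptor Marco, from 0.297, 0.343 and 0.298 CPM to 1090, 856 and 1025 CPM, was the most even of these rises across mice (log2 11.63 ± 0.45; edgeR adjusted p = 1.62e-10).

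Of 20 inflammatory cytokine genes tested, 9 rose, 2 fell (10 and 1 without mouse 2) and the others did not pass the test. Il1b went from 2.18, 13.4 and 2.62 CPM to 643, 90.6 and 355 CPM (log2 5.94), and Tnf from 13.4, 5.69 and 13.6 CPM to 168, 99.3 and 158 CPM (log2 3.69). Il10, an anti-inflammatory cytokine, went from 4.11, 4.18 and 3.76 CPM to 35.3, 46.3 and 39.2 CPM (log2 3.33), and Il1rn, the IL-1 receptor antagonist, from 28.4, 12.8 and 19.6 CPM to 251, 161 and 205 CPM. Mouse 2 was the lowest of the PAM3 libraries for Il1b, Tnf and Il1rn. The median log2 fold change of the cytokine list was 3.33 (2.07 with genes at 0 counts at their bound). Of 20 chemokines, 11 rose (55.0%) and 4 fell (20.0%), beside 29.9% and 32.1% over all genes tested. Ccl5 rose to 902, 129 and 621 CPM from 2.08, 5.35 and 3.22 CPM, while Ccl6 (log2 -2.18) and Ccl9 (log2 -1.23) fell.

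Chemotactic receptors divided. Fpr1 and Fpr2, receptors for formyl peptides, rose by 7.41 and 5.05 on the log2 scale, and Fpr1 went from 0.792, 1.44 and 1.13 CPM to 182, 176 and 202 CPM. Ccr2, the receptor for monocyte chemoattractants, went from 447, 560 and 471 CPM to 24.1, 34.3 and 26.7 CPM (log2 -4.12), and Cxcr4, the receptor for CXCL12, from 99.7, 208 and 101 CPM to 0.907, 0.523 and 0.325 CPM (log2 -7.86). In the list, 3 of 14 rose (21.4%) and 8 fell (57.1%), beside 29.9% and 32.1% over all genes tested.

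Of type I interferon-stimulated genes, some rose and the rest made no call. Of 34 tested, 14 rose (41.2%) and none fell, beside 29.9% and 32.1% over all genes tested, and 20 rose without mouse 2. Their median log2 fold change was 0.58, beside -0.04 over all genes. Isg15 went from 31.0, 14.1 and 23.8 CPM to 218, 51.5 and 181 CPM (log2 2.70), and Usp18, which removes ISG15, from 27.8, 14.95 and 25.8 CPM to 167, 59.8 and 168 CPM (log2 2.52). Mouse 2 was again the lowest PAM3 library for both. Of 15 interferon-inducible GTPases, 3 were higher (20.0%) and 3 lower (20.0%), each below the 29.9% and 32.1% over all genes tested.

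Of 15 prostaglandin and leukotriene genes, 5 rose and 9 fell, and of 10 arginine, nitric oxide and itaconate genes, 5 rose and 1 fell. Irg1, which makes itaconate, went from 3.66, 2.54 and 4.17 CPM to 1000, 114 and 669 CPM (log2 7.42). Ptges, the inducible prostaglandin E synthase, had a log2 fold change of 6.13, while Ptgs1, encoding cyclooxygenase 1, went from 52.3, 86.5 and 64.6 CPM to 4.25, 3.62 and 3.53 CPM (log2 -4.16) and Hpgd, which breaks down prostaglandins, had a log2 fold change of -8.19. Nos2, encoding inducible nitric oxide synthase, held only 3 counts in the resting group against 251 with PAM3 (log2 6.01, edgeR adjusted p = 0.00105). The ratio was 65.9, and its 95% counting interval (22.3 to 322) covers the sampling of reads only, not the spread between mice.

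Cholesterol synthesis genes rose together with PAM3 in both genotypes. Untreated B6 cells had 19 of 20 higher and 0 lower, at a median log2 fold change of 1.88. In Ch25h-/- cells, 19 of 20 tested rose and none fell, at a median log2 fold change of 2.01, also with 19 without mouse 2. Hmgcs1 went from 70.6, 32.8 and 53.7 CPM to 257, 134 and 271 CPM (log2 2.07), and Mvd, a decarboxylase of the mevalonate pathway, had a log2 fold change of 2.63. Fatty acid synthesis genes were 10 of 14 higher and 1 lower, among them Fasn (log2 2.64) and Scd2 (log2 3.46). Resting mouse 2 was the lowest of the resting libraries for Hmgcs1, Mvd and Fasn.

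Of 19 LXR receptors and targets, 5 rose (26.3%) and 9 fell (47.4%), beside 29.9% and 32.1% over all genes tested, and without mouse 2 5 rose and 4 fell. Nr1h3, encoding LXRa, went from 9.16, 9.39 and 7.51 CPM to 71.9, 64.8 and 74.4 CPM (log2 3.02). Lipa and Npc2, of lysosomal cholesterol handling, fell by 1.74 and 1.15 on the log2 scale. Gpr183, the receptor for the oxysterol 7α,25-dihydroxycholesterol, went from 43.9, 31.3 and 56.4 CPM to 2.58, 0.959 and 1.86 CPM (log2 -4.62). Of 11 oxysterol and cholesterol ester genes, 3 rose (27.3%) and 6 fell (54.5%).

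Stress and biosynthesis lists were mostly higher. Of 25 integrated stress response genes, 20 rose and 2 fell, with Atf4, the transcription factor of the response, from 110, 67.5 and 95.9 CPM to 333, 279 and 351 CPM (log2 1.82). Of 20 endoplasmic reticulum chaperones, 18 rose and none fell, Hyou1 by 2.20 and Manf by 2.18 on the log2 scale. Of 22 ribosome biogenesis genes, 20 rose and none fell. Of 24 glycolysis and hypoxia genes, 19 rose and 2 fell, with Hk2, a hexokinase, at log2 3.00. Gapdh, in this list, stood at only 6.17 to 10.02 CPM at rest, and its near-identical pseudogene copies make its count uncertain. Of 32 nuclear genes of mitochondrial respiration, 21 rose and 1 fell (16 and 0 without mouse 2). Of 14 iron and heme genes, 9 rose (64.3%) and 4 fell (28.6%), beside 29.9% and 32.1% over all genes tested. Fth1, the ferritin heavy chain, reached 29690, 20590 and 30190 CPM from 6425, 7773 and 5877 CPM. Slc40a1, the iron exporter ferroportin, fell from 350, 647 and 563 CPM to 3.06, 2.53 and 2.05 CPM (log2 -7.68).

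**Figure D2:**
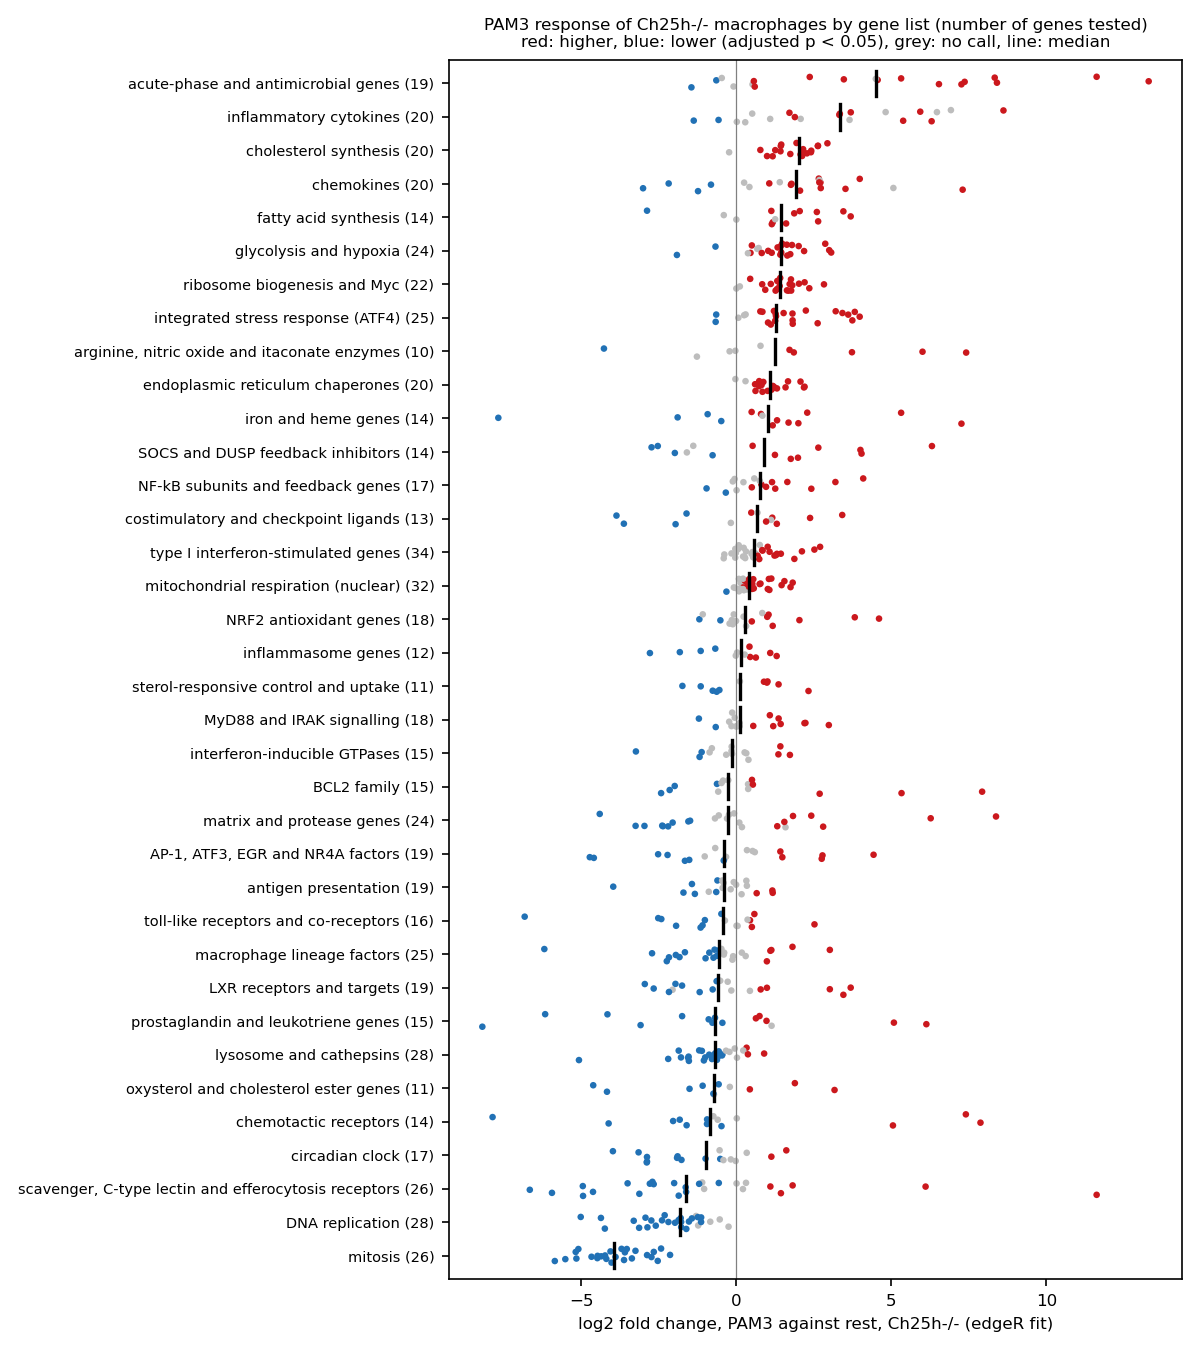
Log2 fold change with PAM3 in Ch25h-/- cells (x axis) of the tested members of 36 pathway lists (rows, with the number tested); red and blue points passed the adjusted p of 0.05, grey did not, and the black line is the median. Cholesterol synthesis sits at a median of 2.01 and mitosis at -3.96.

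Proliferation genes were lower in every case called. All 26 tested mitosis genes fell, at a median of -3.96, and 23 of 28 DNA replication genes fell with none higher. Cenpf, a kinetochore protein, went from 104, 23.9 and 87.8 CPM to 1.72, 0.392 and 2.65 CPM (log2 -5.51). Rrm2, a ribonucleotide reductase subunit, went from 97.1, 4.80 and 89.5 CPM to 4.39, 1.48 and 4.32 CPM (log2 -4.24), so that resting mouse 2 lay close to the PAM3 libraries. Mcm7, whose promoter is printed above, went from 105, 12.8 and 91.7 CPM to 8.50, 6.75 and 8.64 CPM. Without mouse 2, 26 mitosis and 26 DNA replication genes fell.

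Lysosomal and scavenger genes were mostly lower, with exceptions, and macrophage identity genes were mixed. Of 28 lysosome and cathepsin genes, 3 rose and 20 fell, and Ctsb, encoding cathepsin B, went from 14930, 16250 and 12810 CPM to 5662, 4395 and 5093 CPM (log2 -1.54). Of 26 scavenger, lectin and efferocytosis receptors, 5 rose and 16 fell. Trem2, a lipid-sensing receptor, went from 722, 672 and 722 CPM to 25.9, 23.4 and 19.1 CPM (log2 -4.95 ± 0.18; edgeR adjusted p = 1.48e-10), an even fall across mice. Mrc1, the mannose receptor, went from 4251, 1984 and 4726 CPM to 54.1, 236 and 66.5 CPM (log2 -4.94). Emr1, which encodes F4/80, rose from 2859, 3916 and 3305 CPM to 12420, 15380 and 13500 CPM (log2 2.04), while Cd68 fell (log2 -2.20). Of 18 macrophage identity genes, 7 rose (38.9%) and 10 fell (55.6%), beside 29.9% and 32.1% over all genes tested. Of 25 lineage factors, 5 rose and 13 fell (5 and 10 without mouse 2), Irf4 by 6.19 on the log2 scale. Of 17 circadian clock genes, 2 rose (11.8%) and 10 fell (58.8%).

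The remaining largest changes came from single genes. Slco2b1, an organic anion transporter, went from 132, 290 and 198 CPM to 0, 0.741 and 0.418 CPM (log2 -9.02 ± 0.69). Cd28, a costimulatory receptor best known on T cells, went from 181, 276 and 157 CPM to 2.15, 1.00 and 0.790 CPM (log2 -7.29). T and NK cell markers summed to 9.11 to 56.6 CPM at rest and 1.29 to 2.48 CPM with PAM3. Which cells the Cd28 reads came from was not tested. Il1rl1, the IL-33 receptor, went from 13.2, 12.7 and 14.7 CPM to 0.0477, 0.131 and 0.0930 CPM (log2 -7.16). Slc13a3, a dicarboxylate transporter, rose from 4.55, 3.70 and 5.60 CPM to 1251, 5934 and 2026 CPM (log2 9.37). Rasgrp1, an activator of Ras, rose from 0.446, 0.480 and 0.358 CPM to 73.2, 59.4 and 74.9 CPM. Nhs, Raver2, Draxin and Shisa3 had 0 counts in every resting library, and against a floor of 3 counts over the group they were at least 306-fold, 832-fold, 266-fold and 602-fold higher with PAM3. Bcl2a1a, a pro-survival BCL2 family gene, rose by 7.93 on the log2 scale, but its near-identical copies Bcl2a1b and Bcl2a1d make the split of reads between them uncertain.

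Whether loss of Ch25h altered the response was asked against B6 cells without 25HC, in the same fit. No gene of 12741 had a PAM3 response that differed between the genotypes at an adjusted p of 0.05 by edgeR (0.0%), and the smallest adjusted p was 0.481. At an unadjusted edgeR p of 0.05, 598 genes passed (4.69%). A calibrated test passes about this share where nothing differs, but calibration was not tested for this difference. Of the 598 genes, 184 had a higher and 414 a lower log2 fold change in Ch25h-/- cells. DESeq2's Wald test called 2 genes at an adjusted p of 0.05. Neither test shows that the responses are equal. The median half-width of the 95% interval of the difference was 0.55 on the log2 scale, and for 8270 genes (64.9%) the interval lay within 2-fold either way. Among the 3896 genes that changed at least 2-fold in Ch25h-/- cells, it did so for 1357 (34.8%).

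Side by side, 6848 genes were called in both genotypes, 86.8% of the Ch25h-/- calls and 86.6% of the B6 calls, and 6847 of them had the same sign. The 2 comparisons share no library, and across the 12741 genes, which are not independent replicates, the log2 fold changes had a Pearson r of 0.945 and a Spearman rho of 0.943. Trem2 differed by 0.16 (95% interval -0.31 to 0.62) and Tlr1 by -0.14 (-0.54 to 0.27). Hmgcs1 differed by 0.15 (-0.70 to 1.01), and cholesterol synthesis was higher for 19 of 20 genes in both genotypes. Saa3 differed by 1.01 (-0.67 to 2.70). Some genes, picked after their values were seen, had intervals, unadjusted for the number of genes, on 1 side of 0, although none passed the adjusted test: Il10 by 1.00 (0.16 to 1.84; edgeR adjusted p = 1.0), Il1b by -2.83 (-4.99 to -0.67; edgeR adjusted p = 1.0), Lcn2 by -2.93 (-4.47 to -1.38; 0.968), Tlr2 by -0.76 (-1.35 to -0.17; 1.0) and Hmox1, the heme oxygenase, by -0.81 (-1.20 to -0.42; 0.766). Tnf differed by 0.33 (-1.12 to 1.79) and Il1rn by 0.27 (-0.59 to 1.13). The B6 libraries for Il1b stood at 2755, 798 and 1421 CPM with PAM3, all above the 90.6 to 643 CPM of the Ch25h-/- libraries.

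**Figure D3:**
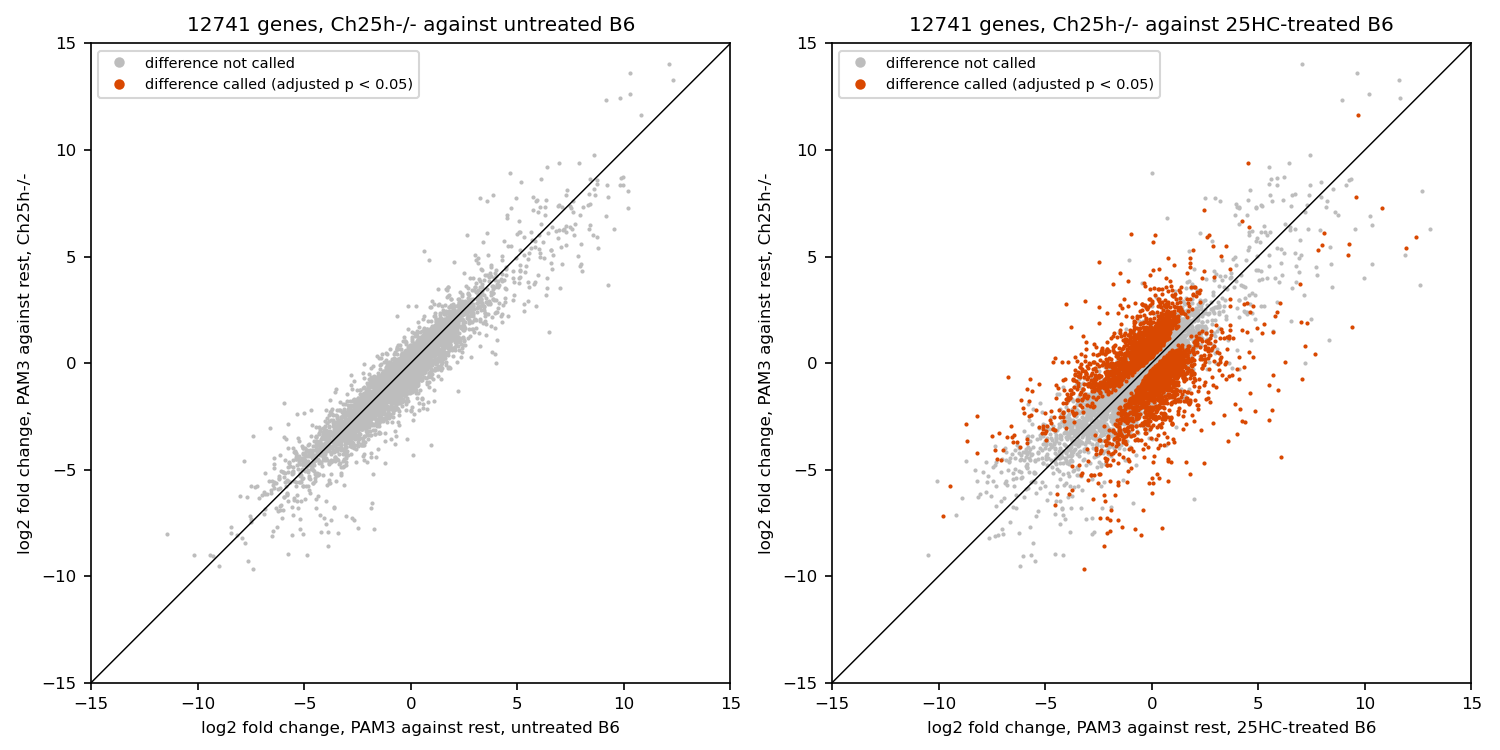
Log2 fold change with PAM3 in Ch25h-/- cells (y axis) against untreated B6 (left) and 25HC-treated B6 (right, both x axes log2), 1 point per gene over 12741 genes; orange points passed the test of the difference and the line marks equality. No gene passes on the left and 4370 pass on the right.

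Against B6 cells given 25HC, the PAM3 response of Ch25h-/- cells differed widely. This comparison changes both the genotype and the added sterol, which cannot be told apart within it. Of 12741 genes, 4370 (34.3%) differed, with 2259 higher (17.7%) and 2111 lower (16.6%) in log2 fold change in Ch25h-/- cells. In cholesterol synthesis, 19 of 20 genes had a higher response in Ch25h-/- cells, whose median was 2.01 beside -0.08 in the 25HC-treated cells. In interferon-stimulated genes, 29 of 34 were higher and none lower, at medians of 0.58 and -0.88. Endoplasmic reticulum chaperones had 16 higher and 1 lower of 20, ribosome biogenesis genes 13 higher and none lower of 22, and fatty acid synthesis genes 10 higher and none lower of 14. Matrix and protease genes had 2 higher and 8 lower of 24, and NRF2 antioxidant genes 1 higher and 7 lower of 18. These lists are examples, and others leaned as far. Circadian clock genes had 0 higher and 8 lower of 17. Nuclear mitochondrial respiration genes had 17 higher and 1 lower of 32, and integrated stress response genes 15 higher and 4 lower of 25.

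Single genes showed how the groups stood. Isg15 reached 218, 51.5 and 181 CPM with PAM3 in Ch25h-/- cells and 25.0, 38.1 and 21.6 CPM in 25HC-treated B6 cells, which had 42.5, 29.2 and 19.2 CPM at rest. Scd1, a fatty acid desaturase, went from 33.5, 4.59 and 10.4 CPM to 356, 18.9 and 260 CPM in Ch25h-/- cells and from 30.4, 25.6 and 36.4 CPM to 8.30, 7.80 and 10.4 CPM in 25HC-treated cells. Cxcl1, a neutrophil chemoattractant, stood at 2.82, 0.523 and 0.790 CPM with PAM3 in Ch25h-/- cells and at 364, 237 and 451 CPM in 25HC-treated cells. Tlr2 stood at 900, 892 and 913 CPM with PAM3 in 25HC-treated cells, above the 208 to 266 CPM of the Ch25h-/- cells (difference of log2 fold changes -1.62; edgeR adjusted p = 0.000778). Tlr1 did not differ at that threshold (difference -0.26; edgeR adjusted p = 0.298).

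**Figure D4:**
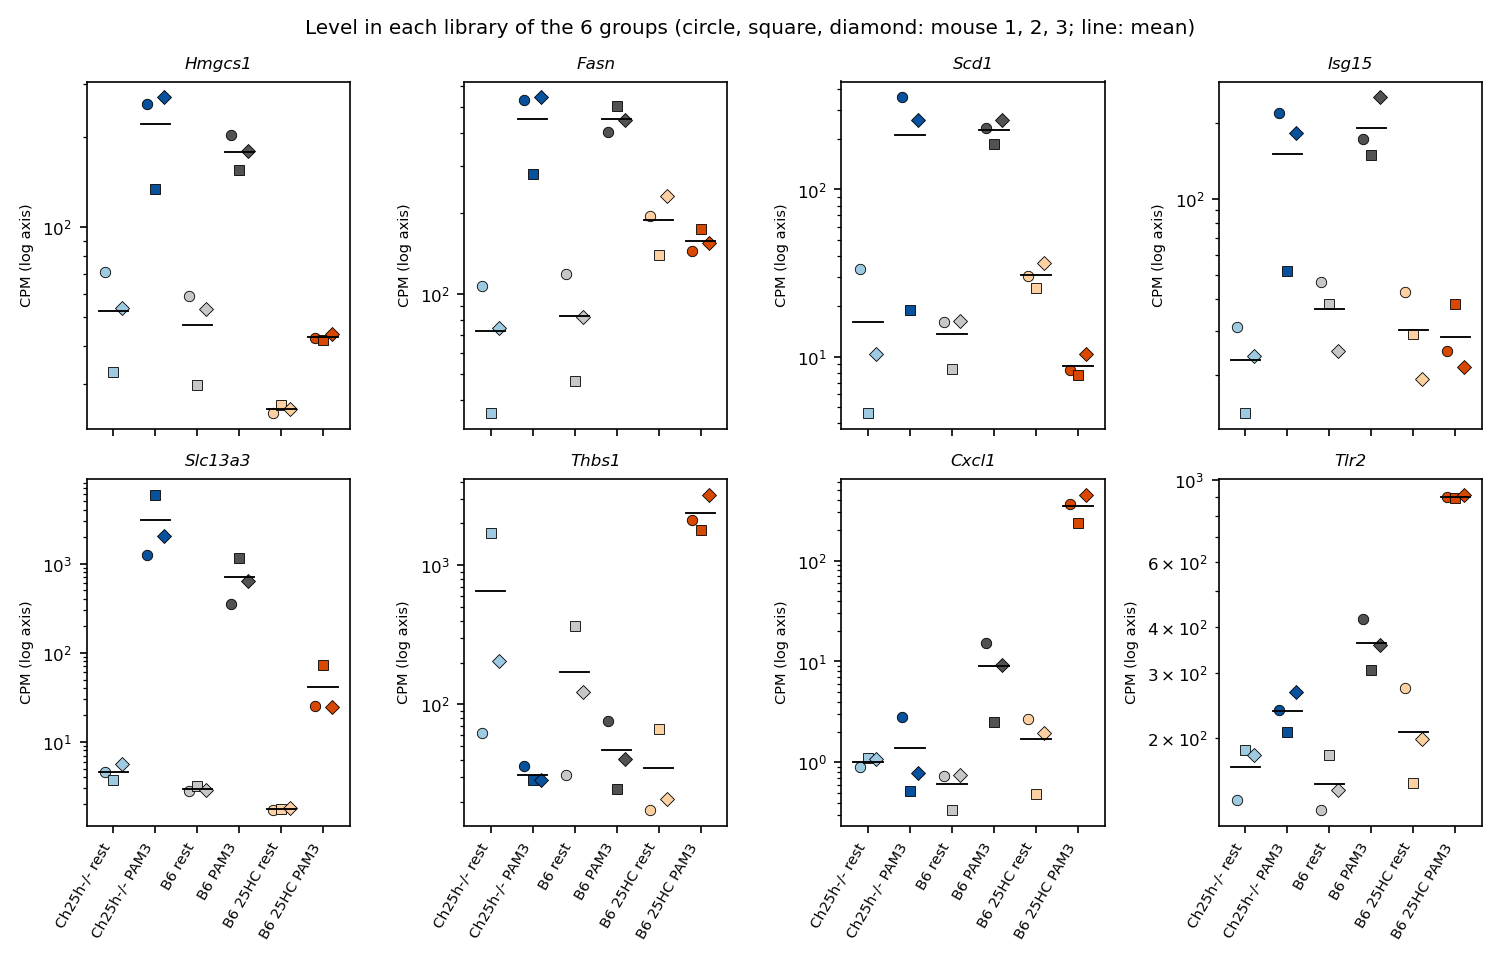
Level in CPM (log axis, own range for each panel) of 8 genes in all 18 libraries, by group; symbols mark mice 1, 2 and 3 and the line is the mean. With PAM3, Cxcl1 and Tlr2 are highest in the 25HC-treated cells, whose 3 Tlr2 values lie between 892 and 913 CPM.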

How the data were processed

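RNA of bone-marrow-derived macrophages was sequenced by the submitters from stranded poly(A) libraries, per the labels' protocols. The deposited values are raw read counts per gene. The submitters' processing notes name FastQC 0.11.9, GSNAP, Subread 1.5.2 with featureCounts, edgeR 3.26.8 and GRCm38/mm10. No source used here names the annotation release or the strand setting of the counting, so reads of overlapping and antisense genes may be shared.

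From the 30530 genes deposited, 12741 passed edgeR's filterByExpr over the 6 groups. All 18 libraries entered 1 robust quasi-likelihood fit with TMM scaling (edgeR 4.0.16, R 4.3.3), with Benjamini-Hochberg adjustment at 0.05 and 12 residual degrees of freedom. The fit was tested on simulated data. Alternatives included DESeq2 1.42.0.

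Same-numbered libraries of a genotype come from the same animal, per the labels; deviations of rest and PAM3 correlated at 0.193, 0.242 and 0.197 in Ch25h-/- mice and at 0.226, 0.306 and -0.0777 in B6 mice.

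Named genes were Ch25h, Tlr1, Tlr2 and Tlr6, the 12 largest rises and falls and 5 smallest p-values in each direction among genes at 5 CPM or more whose groups did not overlap, the 8 largest differences in each direction, and the 5 genes of smallest p in each list (2 of highest level where none was called). Some genes that the rule picks are not reported here. Gene lists and comparisons were chosen with earlier results of these data known.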

Additional observations from a re-analysis of the deposited data

Results flagged for a closer look

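The PAM3 response of Ch25h-/- cells differed from that of 25HC-treated B6 cells, by edgeR's test of the difference, in 2259 genes that responded higher and 2111 that responded lower. Among the largest positive differences of log2 fold changes were Nox1 (6.83), Cd244 (5.71), Scd1 (5.50), Pcp4l1 (5.00), Map1a (4.97), Slc13a3 (4.83) and Camkk1 (4.76). The largest negative values were Thbs1 (-10.49), Ahr (-8.15), Ppbp (-7.84), Cxcl1 (-7.25), Gimap6 (-7.25), Arg2 (-7.21), Clec4n (-7.17) and Socs2 (-6.97). Thbs1, encoding thrombospondin 1, stood at 61.9, 1705 and 205 CPM in resting Ch25h-/- libraries, so mouse 2 sets much of its resting mean. The Camkk1 difference passed at an adjusted p of 0.037 and was lost in several alternatives, 0.107 without mouse 2 among them. Single libraries far from the rest of a group were not looked for by Dixon's criterion in these groups of 3.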

How the results depend on the processing

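The count of genes changed by PAM3 in Ch25h-/- cells, 7893, ranged from 6801 with only the groups compared in the fit to 8216 with the animal as replicate block, and was 6880 without mouse 2. The count that differed from untreated B6 was 0 in the edgeR fits and 2 with DESeq2's Wald test, both lower in Ch25h-/- cells (Irf2bp2 and Rgs11, named after their values were seen; DESeq2 adjusted p 0.0151 and 0.00425). The replicate block also left it at 0. The count that differed from 25HC-treated B6, 4370, was 5129 with the block. Leaving out 1 library at a time gave 6997 to 7665 and 3194 to 4460 for the Ch25h-/- response and its difference from 25HC-treated B6. Without mouse 2, the lower genes went from 2 to 1 in the MyD88, acute-phase, integrated stress response and glycolysis lists. Beside the receptors given above, the call of PAM3 against rest in Ch25h-/- cells was lost in some alternatives for Thbs1, Ppbp, Gimap6, Socs2, Iigp1, H2-Eb1, S100a9, Itgax, Pf4, Kit and Pdgfrb and gained for Camp, Lck, Cd79b, Lum, Cxcl12 and Zbtb46. No gene named in the text reversed in the alternatives run. Depth in Ch25h-/- cells, at the lowest 14040513 counts, limits genes of few counts.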
